A study of Mus musculus with 6 samples.

Results

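The SLC25 family is the largest group of transport proteins in the inner mitochondrial membrane. Its genes were taken as all rows of the count table whose symbol is Slc25a followed by digits only and that had at least 10 counts in at least 3 of the 6 libraries. Of 46095 rows, 47 bear such a symbol and 41 met the count rule. The libraries came from kidneys of mice on a C57BL/6 background, 3 under the treatment label DHT (dihydrotestosterone, a potent androgen that cannot be turned into estrogen) and 3 under the label control. The strain label names a mouse model of polycystic ovary syndrome (PCOS) for the control kidneys as well, and only the treatment label separates the groups. The labels give no age, sex, dose or duration, nor whether each library is a different animal, so p-values here measure the spread between libraries, which may be technical. The study asked about kidney injury in that PCOS model.

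Carriers of this family are small proteins that span the membrane several times, and nearly all sit in the inner membrane of mitochondria. They swap metabolites, nucleotides, phosphate and cofactors between the cytosol and the matrix, and so tie glycolysis, the citric acid cycle, fat oxidation, urea and amino acid metabolism and ATP export together. They are made in the cytosol and enter the inner membrane through the TOM complex of the outer membrane, small TIM chaperones and the TIM22 complex. The proximal tubule of the kidney is densely packed with mitochondria and feeds mainly on fatty acids, lactate and glutamine.

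In DHT kidneys the dicarboxylate carrier gene Slc25a10 and the orphan carrier gene Slc25a34 were higher. Values are read counts as CPM (counts divided by the library's total and put on a common scale), scaled by TMM (trimmed mean of M-values), and means are given ± SD over 3 libraries. Values of single libraries are listed in the order of replicates 1, 2 and 3. A gene was called when edgeR's quasi-likelihood test gave a Benjamini-Hochberg adjusted p under 0.05 over all 15367 genes tested. In bulk tissue such as this, fewer cells of a type and less RNA per cell cannot be told apart. All 41 carriers were tested, and 3 were called, which is 7.32%, where 2.84% of all tested genes were. The higher calls were 2, where 1.38% of all tested genes were called higher, and the lower call was 1, where 1.46% were. DESeq2 called 4 carriers higher and 2 lower, where it called 5.67% and 5.18% of the 15062 genes it gave an adjusted p (10.8% in either direction). limma-voom called 2 higher and 1 lower, where it called 2.09% of all tested genes. The median log2 fold change of the 41 carriers was 0.08, against 0.003 for all tested genes. With scaling by total counts these medians were -0.03 and -0.10. The number of carriers with a log2 fold change above 0 was then 20, against 27 with TMM scaling.

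Slc25a34 encodes a carrier whose substrate is not settled. It stood at 53.1, 40.4 and 58.3 CPM in the DHT kidneys, and at 27.85, 27.55 and 25.1 CPM in the controls. Every DHT library lay above every control library, and DHT replicate 2 was the lowest of the 3. The mean rose from 26.8 ± 1.49 to 50.6 ± 9.22 CPM, a 1.89-fold difference (log2 fold change 0.92 ± 0.15 SE, edgeR adjusted p = 0.0268). Its locus is chromosome 4, 141618824 to 141623821 (GRCm38, minus strand), and no other annotated exon overlaps its exons. The call was lost without DHT replicate 1 (adjusted p = 0.0908), DHT replicate 3 (0.118), control replicate 2 (0.124) or control replicate 3 (0.0765), while the log2 fold change stayed between 0.80 and 1.05 over all 6 such fits.

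Slc25a10 encodes the dicarboxylate carrier, which exchanges malate or succinate for phosphate and has been linked to glutathione uptake. Its level was 536.9, 488.9 and 614.3 CPM in the DHT kidneys, against 348.8, 343.3 and 293.5 CPM in the controls. The groups did not overlap, and DHT replicate 2 again had the lowest DHT value. From 328 ± 30.5 CPM in control the mean rose to 547 ± 63.2 CPM, or 1.66-fold (log2 fold change 0.73 ± 0.15 SE, edgeR adjusted p = 0.0453). Its locus is chromosome 11, 120491840 to 120499187 (plus strand), and 6.6% of its exonic bases are shared with the antisense gene Gm11788. The adjusted p was 0.124 without DHT replicate 1, 0.144 without DHT replicate 3, 0.0715, 0.148 and 0.101 without control replicates 1, 2 and 3, and 0.066 and 0.0524 with the length and GC corrections. The log2 fold change lay between 0.63 and 0.80 under all 16 alternatives. The summed level of 6 markers of the straight segment of the proximal tubule was also highest in DHT replicates 1 and 3 (8220 and 8130 CPM, against 3570 CPM in DHT replicate 2 and 2400 to 4100 CPM in controls). The markers did not move as one. Slc7a13 was called higher, and Slc5a8 had all DHT libraries above control without a call (edgeR adjusted p = 0.0696). Slc27a2 and Atp11a overlapped between groups. Slc22a7 had lower values with DHT (39.4, 13.3 and 74.3 CPM, against 41.3, 251.3 and 263.5 CPM, edgeR adjusted p = 0.202). Slc5a1 was level (106.6 ± 4.39 and 103.8 ± 19.4 CPM). The part of the 6 markers in the Slc25a34 and Slc25a10 differences was not tested.

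The upstream sequences of these genes are shown because they are the pair of carriers called higher in DHT. RefSeq sequences (GRCm38.p6) of the 250 bases before the annotated start were read for 33 of the 41 carriers. Capitals mark matches, on either strand, to any of 8 motifs: the androgen response element (AGAACA and TGTTCT with 3 bases between), a single arm of it (AGAACA), the PPAR and HNF4 repeat (AGGTCA, 1 base, AGGTCA), the estrogen-related receptor element TCAAGGTCA, the E-box CACGTG, the D-box TTATGTAA, the NRF1 site (GCGCA followed by TGCGC) and the GC box GGGCGG. The single arm lies within the full androgen element, and the repeat and the estrogen-related receptor element share the letters AGGTCA. The windows are chr11:120491587-120491836 on the plus strand for Slc25a10 and chr4:141623835-141624084 on the minus strand for Slc25a34, written in the direction of transcription.
Slc25a10: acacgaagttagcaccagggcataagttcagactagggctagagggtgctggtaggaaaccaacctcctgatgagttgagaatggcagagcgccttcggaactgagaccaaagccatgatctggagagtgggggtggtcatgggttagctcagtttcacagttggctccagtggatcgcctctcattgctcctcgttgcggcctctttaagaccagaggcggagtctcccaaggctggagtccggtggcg
Slc25a34: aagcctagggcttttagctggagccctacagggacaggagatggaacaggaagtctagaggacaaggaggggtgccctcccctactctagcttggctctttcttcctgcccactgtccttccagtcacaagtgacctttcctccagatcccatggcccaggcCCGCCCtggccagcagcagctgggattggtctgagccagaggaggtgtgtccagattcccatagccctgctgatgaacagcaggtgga
The Slc25a10 window held none of the 8 motifs, so it carries no capitals, and the Slc25a34 window held a GC box and none of the others. Among the 33 windows, 24 held a GC box (72.7%, against 32.7% of 32851 windows of the same length before all starts in the RefSeq table). An E-box stood in 5 of them, those of Slc25a1, Slc25a13, Slc25a14, Slc25a33 and Slc25a36 (15.2%, against 6.02%). The single androgen arm stood in 3, of Slc25a17, Slc25a43 and Slc25a45 (9.1%, against 16.1%). The other 5 motifs were in 0 of the 33, with shares among all windows of 0.00913% for the androgen element, 0.0335% for the PPAR and HNF4 repeat, 0.387% for the estrogen-related receptor element, 0.819% for the D-box and 0.782% for the NRF1 site. These percentages are for unlike sets. Each carrier gave 1 window, at the start nearest its main GENCODE transcript, and had passed the count rule. The 32851 windows took every start, with no filter on expression or gene type. A match is a run of letters, and binding was not measured.

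**Figure D1:**
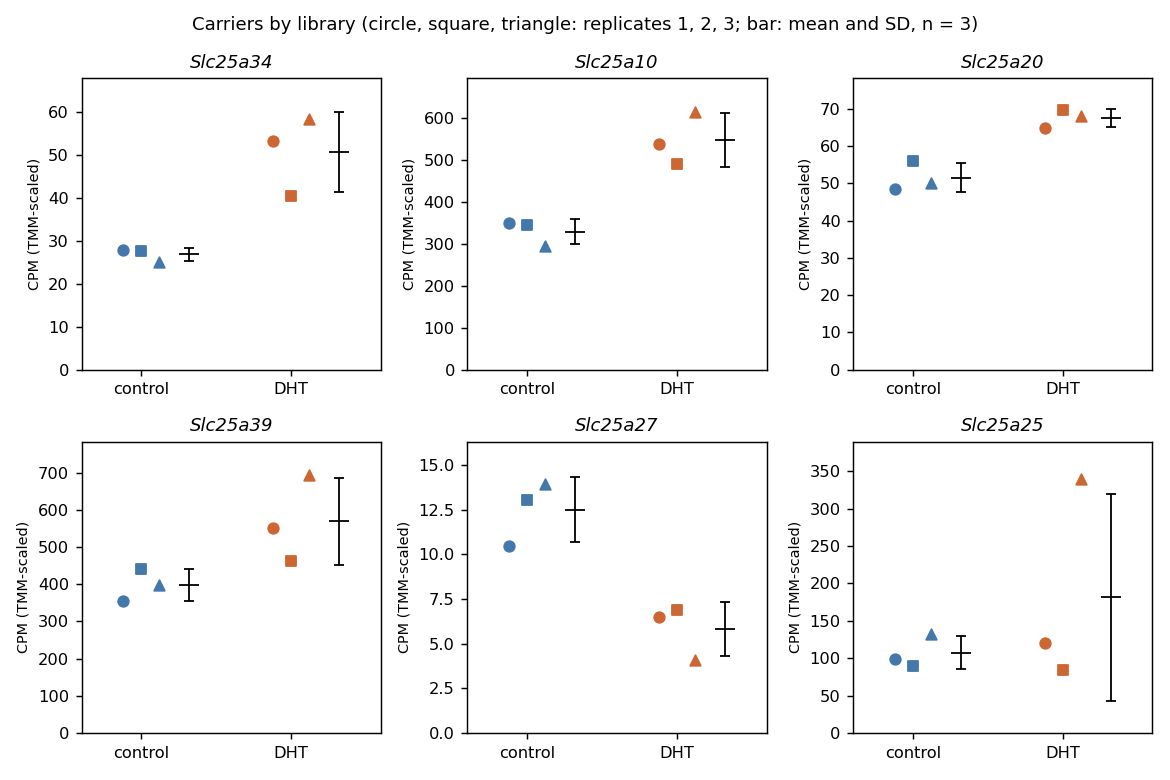
TMM-scaled CPM of 6 carriers in each library (circles, squares and triangles for replicates 1, 2 and 3; black bars for mean and SD, n = 3 per group; y axes start at 0). Slc25a34, Slc25a10, Slc25a20 and Slc25a39 have all DHT libraries above control, Slc25a27 has all below, and Slc25a25 has 1 high DHT library at 339.3 CPM.

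Levels across the family were compared per kb of exonic length (GENCODE M21 gene models), over all 6 libraries. The range was wide: the highest mean was 4440 times the lowest. Slc25a5, the ADP/ATP translocase ANT2, led at 690.7 ± 58.8 CPM per kb, and its lowest library lay above the highest library of every other carrier. It alone gave 20.1% to 22.9% of the summed carrier CPM of a library. Next came Slc25a39, a mitochondrial glutathione carrier, at 175.3 ± 44.5 CPM per kb. Slc25a4 (the translocase ANT1) was at 160.2 ± 14.2 and Slc25a3 (the phosphate carrier) at 155.3 ± 5.50 CPM per kb, and Slc25a10 at 126.7 ± 36.9 CPM per kb. The ranges of these 4 overlapped from each to the next, so their order is not firm. The 5 genes together held 60.9% of all carrier CPM.

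A gap followed: the peroxisomal cofactor carrier gene Slc25a17, the aspartate-glutamate carrier gene Slc25a13 and the ornithine carrier gene Slc25a15 stood at 42.1 ± 6.07, 38.9 ± 7.47 and 38.6 ± 6.72 CPM per kb. Their ranges overlapped each other and did not reach that of Slc25a10. In the whole order of 41, only 5 neighbouring pairs had ranges that did not overlap. At the lower end, 7 carriers had means under 1 CPM per kb: Slc25a33, Slc25a43, Slc25a1, Slc25a11, Slc25a47, Slc25a24 and Slc25a53. For Slc25a1, Slc25a11 and Slc25a53 it was not tested whether these counts measure expression, as many of their neighbours are low too. The summed CPM of the 41 carriers was 5671, 5373 and 6231 in the DHT kidneys, and 5242, 5166 and 4806 in the controls. All DHT sums thus lay above the control sums, by a narrow margin for DHT replicate 2. As shares of all counts the carriers took 0.527%, 0.57% and 0.564% in DHT and 0.533%, 0.515% and 0.527% in control, and these shares overlapped.

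**Figure D2:**
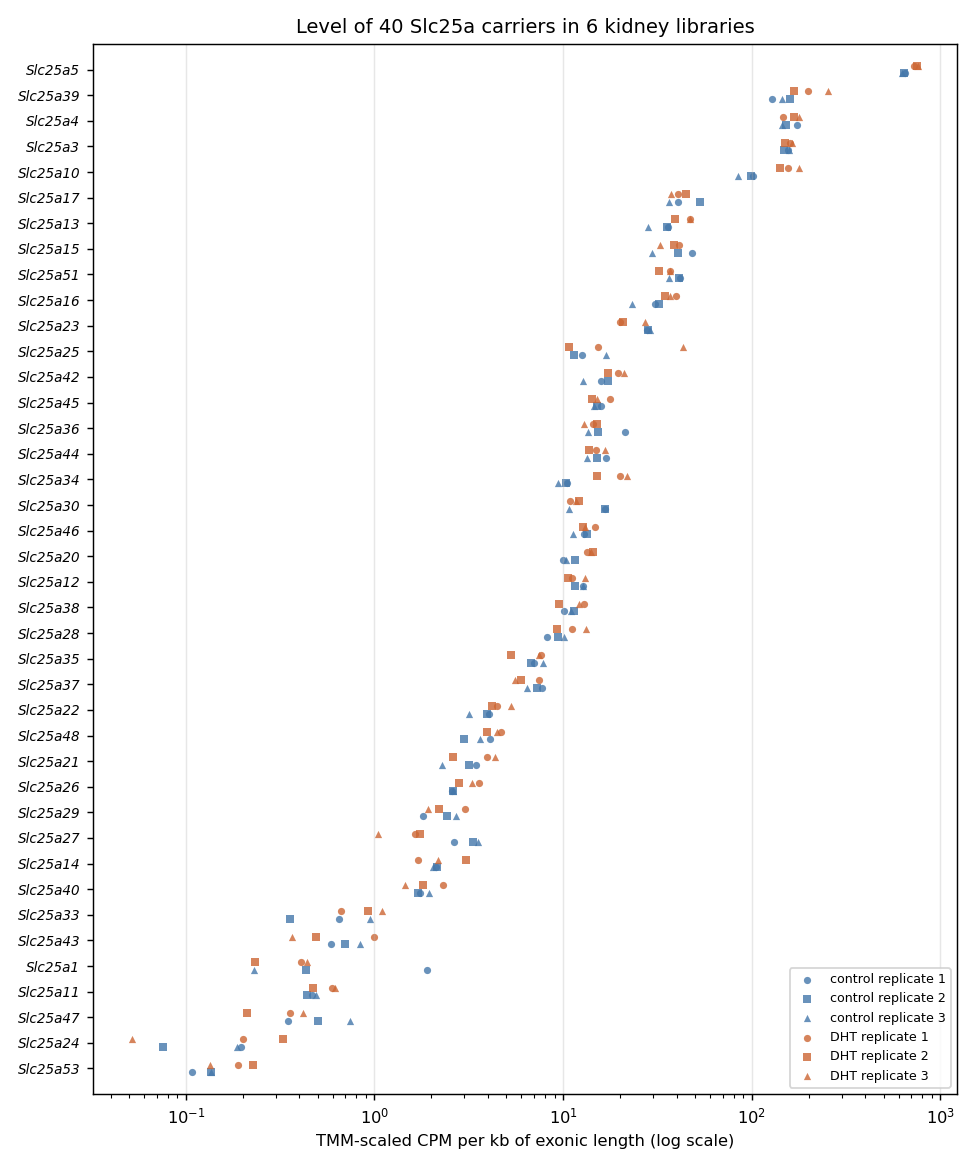
Level of 40 carriers per kb of exonic length in each of the 6 libraries (x axis: TMM-scaled CPM per kb, log scale; blue control, orange DHT; symbols for replicates 1, 2 and 3). Slc25a5 stands alone at the top, and 7 carriers have means under 1 CPM per kb.

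Beside Slc25a10, the carriers of tricarboxylates, dicarboxylates and oxoacids are Slc25a1 (citrate), Slc25a11 (oxoglutarate and malate) and Slc25a21 (oxoadipate and oxoglutarate). Slc25a21 was at 19.2, 12.7 and 21.3 CPM with DHT, against 16.7, 15.4 and 11.1 CPM in controls, with overlapping groups (edgeR adjusted p = 0.455). Slc25a1 had 14, 8 and 16 counts in DHT and 67, 18 and 10 counts in control. Its log2 fold change of -1.22 ± 0.77 SE (edgeR adjusted p = 0.365) rests on control replicate 1, without which it was 0.12. Slc25a11 had 20, 16 and 22 counts in DHT and 16, 18 and 21 in control.

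The low counts of Slc25a1 and Slc25a11 lie among neighbours that are also low in this table. Of 13 other protein-coding genes within 250 kb of Slc25a1, 10 had fewer than 60 counts over the 6 libraries together, and of 25 within 250 kb of Slc25a11, 16 did. Over all 20637 matched protein-coding genes the share under 60 counts was 36.5%. In all, 6 of the 41 carriers had over 50% of such neighbours low. Beside Slc25a1 and Slc25a11 these were Slc25a53 (7 of 11 neighbours low), Slc25a13 (1 of 1), Slc25a21 (3 of 5) and Slc25a30 (4 of 7). They had 128, 15235, 1662 and 6296 counts themselves. A share over so few neighbours says little, and why neighbours were low was not tested. Pfn1, which encodes profilin, an actin-binding protein of nearly every cell, lies near Slc25a11 and had 254 counts in all 6 libraries together. Rnf167 and Spag7, also near Slc25a11, had 40 and 43, and Dgcr2, near Slc25a1, had 57.

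The aspartate and glutamate carriers serve the malate-aspartate shuttle and glutamate uptake. Of these, 0 of 3 were called by edgeR, DESeq2 or limma-voom, while 1, Slc25a13, had an unadjusted p under 0.05. Over all genes these tools called 2.84%, 10.8% and 2.09%, and 23.9% had an unadjusted edgeR p under 0.05. Slc25a13 (citrin) was at 179.7, 148.8 and 179.6 CPM with DHT, against 135.8, 135.1 and 106.7 CPM in controls. Slc25a22, a glutamate carrier, was at 26.8, 25.3 and 31.6 CPM with DHT, against 24.4, 23.7 and 19.05 CPM in controls. In both genes the DHT libraries lay above the controls, as in 14.8% of all tested genes. Neither was called (log2 fold changes 0.43 ± 0.14 and 0.32 ± 0.15 SE, edgeR adjusted p = 0.122 and 0.222). Slc25a12, the citrin relative aralar, overlapped between groups, at 85.5 ± 9.43 and 90.7 ± 4.94 CPM (edgeR adjusted p = 0.704). The shuttle's enzymes Got1, Got2, Mdh1 and Mdh2 had log2 fold changes of -0.07 ± 0.13, 0.08 ± 0.17, 0.28 ± 0.18 and 0.13 ± 0.16 SE, with overlapping groups in each.

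Among carriers of adenine nucleotides and phosphate, 0 of 6 were called by edgeR, DESeq2 or limma-voom, and 1 had an unadjusted p under 0.05, Slc25a23. The shares over all genes were 2.84%, 10.8% and 2.09% for the calls, and 23.9% for the unadjusted edgeR p. The abundant members differed little: Slc25a3 was at 871.6 ± 37.8 CPM with DHT, against 852.7 ± 25.0 CPM in controls, and Slc25a4 at 385.9 ± 36.3 and 368.0 ± 34.8 CPM. Slc25a5 was at 1186, 1231 and 1250 CPM with DHT, against 1067, 1061 and 1026 CPM in controls, without overlap (log2 fold change 0.22 ± 0.14 SE, edgeR adjusted p = 0.389). Of its transcript, 72.3% is 96.8% identical to the pseudogene Gm5529, so reads of these may not be told apart, though the row Gm5529 held 271 counts against 118154 for Slc25a5. A further pseudogene row, Slc25a5-ps, held 47 counts.

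The ATP-Mg/phosphate carriers, which calcium activates and which load the matrix with adenine nucleotides, differed in direction, and none was called. Slc25a23 was at 105.7, 109.3 and 144.2 CPM with DHT, against 147.9, 149.8 and 152.0 CPM in controls. The DHT values lay below the controls, with DHT replicate 3 close to them (log2 fold change -0.32 ± 0.14 SE, edgeR adjusted p = 0.208). Slc25a25 was at 120.1, 84.5 and 339.3 CPM with DHT, against 99.4, 89.96 and 132.3 CPM in controls. DHT replicate 3 alone stood far above the rest, and without it the log2 fold change was -0.07 in place of 0.76 ± 0.52 SE (edgeR adjusted p = 0.419). The SD of Slc25a25 in DHT was 76.1% of its mean, where the median over the 41 carriers was 12.2% in DHT and 10.7% in control. Slc25a24 had 61 counts in all.

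The carriers related to the uncoupling proteins are Slc25a14, Slc25a27 (UCP4) and Slc25a30 (the kidney mitochondrial carrier protein). Slc25a27 stood at 6.47, 6.89 and 4.09 CPM in the DHT kidneys and at 10.4, 13.1 and 13.9 CPM in the controls. The groups did not overlap, and the DHT mean of 5.82 ± 1.51 CPM was 0.465 times the control mean of 12.5 ± 1.82 CPM. It did not pass (log2 fold change -1.10 ± 0.24 SE, edgeR adjusted p = 0.0504), over 986 counts. DESeq2 gave an adjusted p of 0.00151, and the edgeR test gave 0.0143 with no filter on low counts, 0.0447 with the GC correction and 0.0301 without DHT replicate 2. Over all 16 alternatives its adjusted p ran from 0.00151 to 0.164 and its log2 fold change from -1.25 to -0.90. Slc25a30 was at 49.8, 55.6 and 53.6 CPM with DHT, against 76.5, 76.6 and 49.1 CPM in controls, where control replicate 3 lay below all DHT libraries (edgeR adjusted p = 0.262). Slc25a14 was at 5.46 ± 1.61 and 4.97 ± 0.118 CPM.

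The uncoupling proteins themselves and the relatives Mtch1 and Mtch2, of the outer membrane, are family members under other symbols. Of the 3 tested, Ucp2, Mtch1 and Mtch2, 0 were called by edgeR, DESeq2 or limma-voom and 0 had an unadjusted p under 0.05. Among all genes 2.84%, 10.8% and 2.09% were called, and 23.9% had such an unadjusted edgeR p. Ucp2, widely expressed, was at 108.5 ± 17.8 CPM with DHT, against 105.2 ± 9.71 CPM in controls. Mtch1 and Mtch2 had log2 fold changes of 0.18 ± 0.13 and 0.24 ± 0.14 SE (edgeR adjusted p = 0.408 and 0.334). Ucp1, the heat-making uncoupler of brown fat, had 0 counts in all DHT libraries and in control replicate 1, and stood at 4.82 CPM in control replicate 2 and 0.396 CPM in control replicate 3. The fat cell markers Adipoq and Plin1 were highest in the same library, control replicate 2, at 2.85 and 2.28 CPM, against at most 0.188 and 0.0989 CPM in the other 5 libraries. Fabp4, which endothelium also expresses, led the fat cell list, whose sum was highest in DHT replicate 2 (116 CPM, against 30.3 to 65.6 in the other 5). How far fat tissue in that library accounts for the Ucp1 counts was not tested.

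Slc25a20, the carnitine-acylcarnitine carrier that brings long-chain fatty acids to beta-oxidation, was at 64.9, 69.7 and 68.0 CPM with DHT, against 48.6, 55.9 and 50.2 CPM in controls. All DHT libraries lay above the controls, and the spread within each group was small. It did not pass in the edgeR test (log2 fold change 0.39 ± 0.11 SE, adjusted p = 0.0774) and passed with DESeq2 (adjusted p = 0.0386). Cpt2, the enzyme that takes over the acylcarnitine in the matrix, also had all DHT libraries above control, at 173.9 ± 9.09 against 121.8 ± 16.6 CPM. DESeq2 called it higher (adjusted p = 0.0105) and edgeR did not (log2 fold change 0.51 ± 0.13 SE, edgeR adjusted p = 0.0693). Cpt1a, which makes the acylcarnitine, overlapped between groups (0.44 ± 0.18 SE, adjusted p = 0.191).

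The other amino acid carriers showed small differences. Slc25a15, the ornithine carrier, was at 211.9 ± 25.2 CPM with DHT, against 223.1 ± 53.4 CPM in controls. Slc25a38, which brings in glycine for heme synthesis, was at 31.6 ± 4.87 and 29.8 ± 1.78 CPM. Both overlapped between groups (edgeR adjusted p = 0.84 and 0.751), as did Slc25a29, a carrier of basic amino acids, and Slc25a44, of branched-chain amino acids (adjusted p = 0.94 and 0.995). Oat, the matrix enzyme that breaks down ornithine, was at 220.3, 345.5 and 304.6 CPM with DHT, against 480.7, 461.8 and 456.7 CPM in controls. Its groups did not overlap, and DESeq2 called it lower while edgeR did not (log2 fold change -0.68 ± 0.18 SE, edgeR adjusted p = 0.0712).

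Among carriers of cofactors and nucleotides, Slc25a16 and Slc25a42, both tied to coenzyme A, and Slc25a26, which carries S-adenosylmethionine, had all DHT libraries above the controls. These were 3 of the 8 carriers of this role (37.5%), where 14.8% of all tested genes lay so. Slc25a16 was at 189.6, 165.5 and 176.1 CPM with DHT, against 148.0, 154.0 and 111.0 CPM in controls. For Slc25a42 the lowest DHT and the highest control library both stood at 104.1 CPM after rounding, and the means were 115.8 ± 10.9 and 91.9 ± 14.4 CPM. Slc25a26 was at 15.5 ± 1.89 and 12.5 ± 0.0521 CPM, with the 3 controls almost equal. None of the 3 was called (log2 fold changes 0.36 ± 0.15, 0.33 ± 0.15 and 0.32 ± 0.15 SE, edgeR adjusted p = 0.186, 0.205 and 0.242). With edgeR Slc25a16 and Slc25a42 had an unadjusted p under 0.05 (0.0399 and 0.0483). Of all tested genes 12.0% had one on the higher side and 23.9% on either.

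Pank1 and Pank3, kinases that start coenzyme A synthesis, stood in the DHT kidneys at 530.8, 177.8 and 446.9 CPM and at 202.0, 132.8 and 157.7 CPM. In control, Pank1 was at 128.9, 160.2 and 121.0 CPM and Pank3 at 114.2, 104.8 and 82.8 CPM. DHT replicate 2 was the lowest DHT library in both, still above the controls. DESeq2 called both genes higher and edgeR called neither (edgeR adjusted p = 0.0736 and 0.0696). Other carriers of this role, Slc25a17 and Slc25a51 (NAD), Slc25a33 and Slc25a36 (pyrimidine nucleotides), overlapped between groups, with adjusted p between 0.418 and 0.779.

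Of the glutathione and iron carriers 0 of 4 were called by edgeR, and 1 by DESeq2, Slc25a39 (adjusted p = 0.0469), while limma-voom called 0. Over all genes edgeR called 2.84%, DESeq2 10.8% and limma-voom 2.09%, and 23.9% had an unadjusted edgeR p under 0.05. Slc25a39 was at 549.7, 461.6 and 694.6 CPM with DHT, against 354.5, 439.6 and 398.6 CPM in controls. The groups did not overlap, but DHT replicate 2 stood close to control replicate 2 (log2 fold change 0.52 ± 0.18 SE, edgeR adjusted p = 0.138, unadjusted p = 0.0212, the only 1 of the 4 under 0.05). Its relative Slc25a40 was at 15.5 ± 3.64 and 15.05 ± 1.05 CPM, with overlap. Slc25a28 (mitoferrin 2), the iron carrier of most tissues, was at 42.0 ± 7.30 and 34.6 ± 3.59 CPM, and Slc25a37 (mitoferrin 1), best known in red cell precursors, at 38.2 ± 6.09 and 43.0 ± 4.04 CPM (edgeR adjusted p = 0.296 and 0.49). Red blood cell markers summed to 70.7 CPM in DHT replicate 2, against 3.08 to 37.6 CPM in the other libraries, while Slc25a37 was at 36.0 CPM in DHT replicate 2, within the range of the others. Alas1, which uses glycine to start heme synthesis, was at 319.2, 166.4 and 267.4 CPM with DHT, against 128.9, 154.0 and 163.0 CPM in controls, without overlap. DESeq2 called Alas1 higher and edgeR did not (log2 fold change 0.76 ± 0.23 SE, edgeR adjusted p = 0.101).

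Of the 8 carriers with no settled substrate or another role, Slc25a34 was the only call, where 2.84% of all tested genes were called. Slc25a35, its nearest relative by name, was at 28.2, 19.4 and 27.2 CPM with DHT, against 25.8, 24.8 and 28.8 CPM in controls, and 31.3% of its exonic bases are shared with Rangrf on the other strand. Slc25a48 was at 14.75 ± 1.198 and 12.02 ± 1.89 CPM (edgeR adjusted p = 0.322). Slc25a45, and Slc25a46, which acts on mitochondrial shape at the outer membrane, had log2 fold changes of 0.06 ± 0.12 and 0.11 ± 0.12 SE. Slc25a43, Slc25a47 and Slc25a53 had 124, 139 and 128 counts in all, and the SE of their log2 fold changes was 0.45, 0.43 and 0.37.

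**Figure D3:**
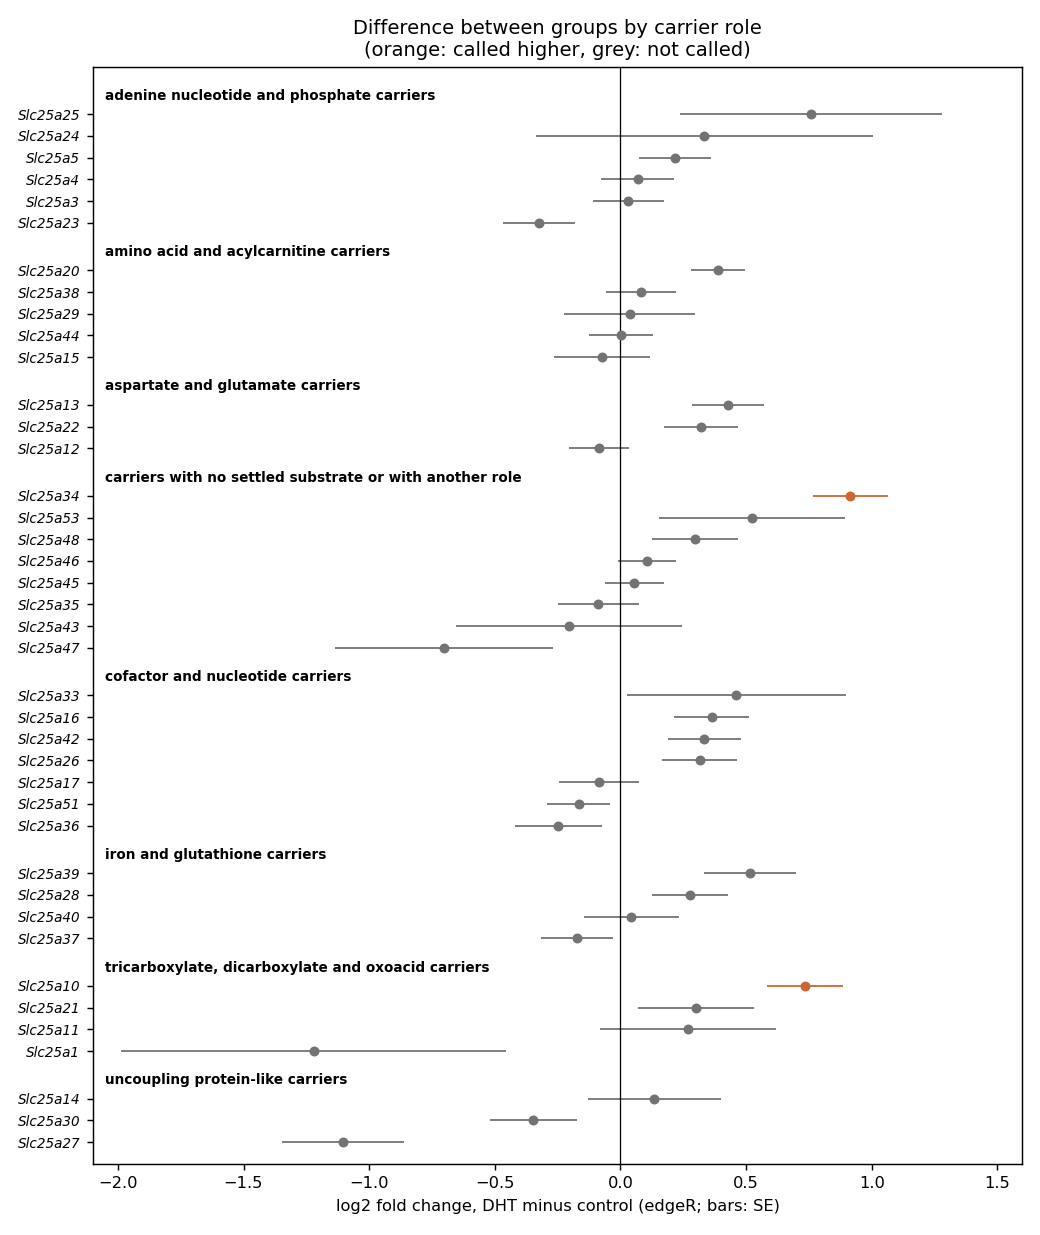
Log2 fold change (DHT minus control, edgeR; bars are SE, n = 3 per group) of 40 carriers, grouped by role. Slc25a34 and Slc25a10 (orange) were called higher; the widest bars belong to carriers with few counts, such as Slc25a1 and Slc25a24, and to Slc25a25.

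Over the 41 carriers, 10 had all DHT libraries above all controls (24.4%) and 3 had all below (7.32%), where 14.8% of all tested genes lay above, 15.0% lay below and 29.8% did either. An unadjusted p under 0.05 was found for 7 on the higher and 3 on the lower side, where 12.0% of all tested genes had one on each side and 23.9% on either. The differences were small in most, and 7 of the 41, Slc25a1 among them, exceeded 1.5-fold either way. DHT replicates 1 and 3 had 23 and 21 carriers above every control library, and DHT replicate 2 had 12. Below every control library were 5, 8 and 12 carriers in DHT replicates 1, 3 and 2. The matching shares of all tested genes were not computed for single libraries, so these counts are not read as a trait of the carriers. Relative to the mean of the controls, the carriers' median shift was 0.23, 0.01 and 0.08 log2 for the DHT libraries. It was 0.045, 0.029 and -0.035 log2 for the control libraries. Over all tested genes the DHT libraries had -0.013, 0.002 and -0.013 log2.

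Several carriers lie next to each other in the genome (GRCm38) at very different levels. Slc25a5 and Slc25a43 lie 18448 bases apart on the X chromosome with 118154 and 124 counts. Slc25a23 and Slc25a41 lie 2056 bases apart on chromosome 17 with 14225 and 3 counts. The annotated bounds of Slc25a29 and Slc25a47 lie 162 bases apart on chromosome 12, on opposite strands, with 642 and 139 counts. Slc25a24 and Slc25a54, on chromosome 3, had 61 and 0.

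The 6 rows outside the count rule were Slc25a2, Slc25a18, Slc25a31, Slc25a32, Slc25a41 and Slc25a54, with 5, 2, 11, 26, 3 and 0 counts over the 6 libraries, and none reached 10 in any library. Of the 5 protein-coding neighbours of Slc25a32 within 250 kb, 3 had fewer than 60 counts, so for it too it was not tested whether the count measures expression. Just inside the rule were Slc25a24, with 10 or more counts in 4 libraries, and Slc25a1, in 5. The other 39 carriers had 10 or more counts in all 6.

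The list of genes that import the carriers had no gene called by edgeR. It held 13 tested genes, of the TOM and TIM22 route and Timm23, of the separate TIM23 complex. All 13 had a log2 fold change above 0, where 50.3% of all tested genes did. With scaling by total counts 12 of the 13 did. The number was also 12 when DHT replicate 2 or control replicate 3 was left out. edgeR and limma-voom called 0, where they called 2.84% and 2.09% of all tested genes. DESeq2 called 3 higher, Timm13, Tomm20 and Tomm22, where it called 5.67% of all genes higher. An unadjusted p under 0.05 was found for 8, all higher, where 12.0% of all tested genes had one on that side. In 9 of the 13 (69.2%) all DHT libraries lay above all controls, where 14.8% of all tested genes did. The median log2 fold change was 0.41, and it was 0.31 with total counts and 0.28 with the length correction. For all tested genes these medians were 0.003, -0.10 and 0.027. All 13 are members of shared complexes or routes and their levels come from the same 6 libraries. Their median shift from the control mean was 0.44, 0.18 and 0.43 log2 in the DHT libraries, smallest in DHT replicate 2, as was the straight segment sum, whose part here was not tested either.

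Timm13, a small TIM chaperone, was at 74.1, 65.0 and 81.9 CPM with DHT, against 35.9, 43.6 and 58.3 CPM in controls (log2 fold change 0.68 ± 0.18 SE, edgeR adjusted p = 0.0735). Tomm22, the central receptor of the TOM complex, was at 75.0, 68.45 and 73.5 CPM with DHT, against 55.8, 55.9 and 54.7 CPM in controls (0.38 ± 0.10 SE, adjusted p = 0.0696). In both genes the groups did not overlap, and DHT replicate 2 was the lowest DHT library. Tomm70a, the receptor that carrier precursors bind first, was at 118.9 ± 19.1 and 89.3 ± 11.8 CPM (adjusted p = 0.153). Timm22, the insertion channel, was at 32.2 ± 3.54 and 27.4 ± 1.83 CPM, and Agk, a lipid kinase that is also a TIM22 subunit, at 17.6 ± 0.611 and 17.4 ± 2.11 CPM. The last 2 overlapped between groups.

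**Figure D4:**
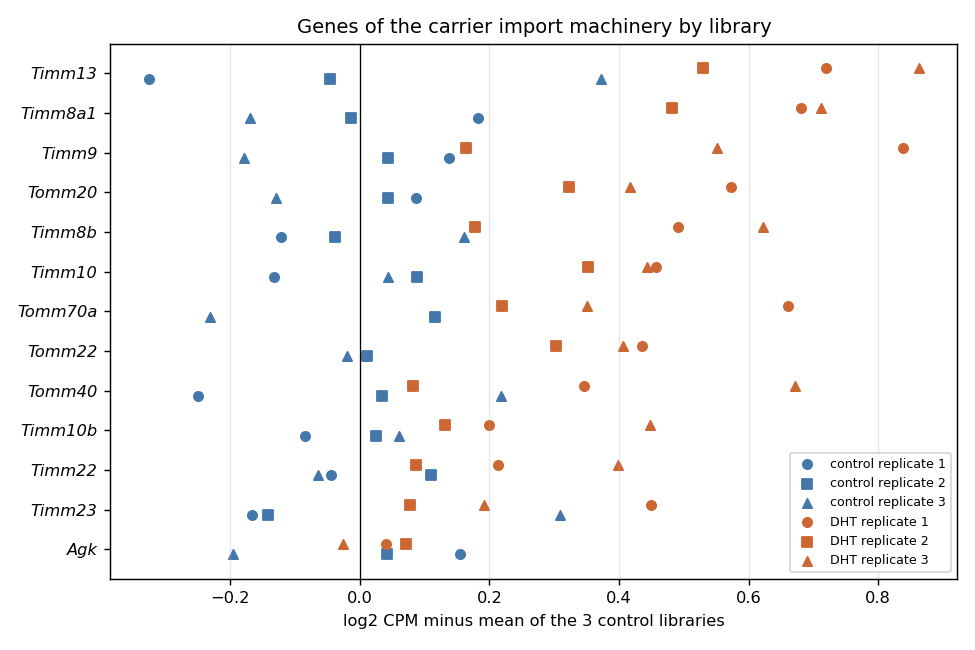
Genes of the carrier import list, Timm23 included, each library as log2 CPM minus the mean of the 3 control libraries (blue control, orange DHT; symbols for replicates 1, 2 and 3). In 9 of 13 genes all orange points lie right of all blue ones, where 14.8% of all tested genes had all DHT libraries above control. None was called by edgeR.

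Other channels and transporters of the mitochondrial membranes held 0 calls among 18 tested by edgeR and limma-voom and 1 by DESeq2 (Sfxn2, lower). At an unadjusted edgeR p under 0.05 there were 2 higher and 3 lower. For all tested genes these shares were 2.84% by edgeR, 2.09% by limma-voom, 10.8% by DESeq2 and 23.9% at an unadjusted edgeR p under 0.05. The lower 3 are among 5 sideroflexins of the list, a separate family that includes serine transporters: Sfxn2 was at 55.2 ± 4.33 against 78.0 ± 10.1 CPM and Sfxn3 at 29.7 ± 2.41 against 41.6 ± 7.70 CPM (edgeR adjusted p = 0.0696 and 0.102), and Sfxn4 at 4.84 ± 0.646 against 7.39 ± 1.29 CPM. The other two, Sfxn1 and Sfxn5, overlapped between groups (log2 fold changes 0.11 ± 0.18 and -0.02 ± 0.10 SE). The pyruvate carrier subunits Mpc1 and Mpc2 had log2 fold changes of -0.39 ± 0.19 and 0.33 ± 0.12 SE (adjusted p = 0.248 and 0.153). The outer membrane pores Vdac1, Vdac2 and Vdac3 had 0.28 ± 0.16, 0.04 ± 0.11 and -0.004 ± 0.12 SE.

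Of the 43 tested enzymes that work with the carriers, 0 were called by edgeR and limma-voom, where these called 2.84% and 2.09% of all tested genes. DESeq2 called 5 higher and 1 lower, where it called 5.67% and 5.18% of all genes. An unadjusted p under 0.05 was found for 11 higher and 3 lower, where 12.0% of all tested genes had one on each side. Cs, the citrate synthase often used as a gauge of mitochondrial content, was at 302.2, 268.8 and 342.5 CPM with DHT, against 328.4, 335.0 and 320.3 CPM in controls, with overlap. Rows of the mitochondrial genome took 13%, 12.6% and 12.2% of counts in DHT and 14.9%, 14.2% and 11.4% in control, also with overlap.

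Among 16 tested regulators of mitochondrial genes, edgeR called 1, Ppargc1a (PGC-1alpha, a coactivator that drives mitochondrial gene expression), which was lower. It stood at 91.8, 77.0 and 87.5 CPM with DHT, against 119.8, 120.9 and 129.1 CPM in controls (log2 fold change -0.53 ± 0.11 SE, edgeR adjusted p = 0.0491). This call was lost when any of the 6 libraries was left out (adjusted p between 0.0519 and 0.151) and with limma-voom (0.055), no robust step (0.0501), the length correction (0.104) or the GC correction (0.0521). Its relative Ppargc1b was at 22.0 ± 3.42 against 33.7 ± 2.88 CPM, without overlap and without an edgeR call (-0.62 ± 0.15 SE, adjusted p = 0.0595). DESeq2 called 2 of the 16 lower, Ppargc1a and Ppargc1b, where it called 5.18% of all genes lower. An unadjusted edgeR p under 0.05 was found for 1 higher and 3 lower, where 12.0% of all tested genes had one on each side. All DHT libraries lay above control in 3 (18.8%) and below in 4 (25%), where 14.8% and 15.0% of all tested genes did. Over all 5 lists of other genes, 1 of 93 tested was called, or 1.08%, where 2.84% of all tested genes were.

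Cell type markers differed between libraries. Of 6 markers of the straight segment of the proximal tubule 1 was called, Slc7a13, where 2.84% of all tested genes were called. The most abundant of the 6, which carry most of the sum, were Slc27a2 and Atp11a. By that sum DHT replicate 2 lay within the range of the controls. The 8 general proximal tubule markers summed to 10600 to 12900 CPM with DHT, against 10700 to 14600 CPM in control, so the labelled tissue showed its defining genes in all libraries. Of these 8, 0 were called, where 2.84% of all tested genes were. Macrophage markers summed to 102, 356 and 235 CPM with DHT, against 101 to 228 CPM in control, led by Csf1r and Lyz2. Thick ascending limb markers, led by Umod and Slc12a1, summed to 4480 to 5470 CPM with DHT, against 4330, 6730 and 11500 CPM in the controls. Sums that also varied over 2-fold were those of principal cells (Aqp2 and Aqp3; 442 to 498 CPM with DHT, 371 to 801 in controls), mesenchyme (Acta2 and Pdgfrb; 133 to 190 and 143 to 277 CPM), lymphocytes (Cd3g and Cd3e; at most 8.39 CPM) and red blood cells (Hbb-bs and Hba-a1). Skeletal muscle (Myh1 and Tnnt3) reached at most 4.11 CPM and adrenal cortex (Star and Cyp11a1) at most 8.81 CPM, with Cyp11b1 and Cyp11b2 at 0 counts in every library. The remaining 4 lists beside the proximal tubule, of distal convoluted tubule, intercalated cells, podocytes and endothelium, varied less than 2-fold and held 0 calls. With 2.84% of all tested genes called, 0 calls in lists this short say little. The part of the cell types in the carriers' differences was not tested.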

How the data were processed

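Kidney RNA of 6 mouse samples was sequenced. Per the labels' protocols, RNA was isolated with Trizol, and libraries of mRNA followed Illumina's standard procedure. HISAT2 2.0 and mm10 are named per the submitters' processing notes. The counting program, annotation and strand setting were not given in the sources used here. As deposited by the authors, the values are raw counts for 46095 gene rows, with columns named as the sample titles. Library totals ran from 15054763 to 19331942 counts.

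edgeR 4.0.16 (R 4.3.3) was run on these counts with filterByExpr (minimum count 10, minimum total 15; 15367 genes left), TMM factors, a robust quasi-likelihood fit on group and Benjamini-Hochberg adjustment over all genes at 0.05. SE is the log2 fold change divided by the root of its F statistic. The common biological coefficient of variation was 0.217. No library repeated another. As a check of the code only, the fit was run on counts simulated with the common dispersion for every gene. Such counts lack the gene-by-gene spread of these libraries.

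Alternatives were median-ratio factors, total counts, other low-count filters, DESeq2 1.42.0, limma-voom (limma 3.58.1), no robust step, a replicate block, a threshold of 0.1, leaving out each library and, chosen after seeing the data, loess corrections (span 0.3) for length and GC. GENCODE M21 models (GRCm38, the assembly of mm10) gave a length to 95.2% of tested genes. Exonic overlap came from bedtools 2.31.1, and copies of at least 95% identity over 50% of a transcript from BLAST 2.17.0+.

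The members, roles and lists were chosen with earlier results of these data known. Named by rule were the called genes, up to 3 further carriers per role by smallest p, the 8 carriers highest per length, the called genes or else the 2 of smallest p per pathway list, and the 2 most abundant markers of lists whose sum varied over 2-fold. All other genes named were chosen after their values were seen. Some genes counted in the totals are not reported here.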

Additional observations from a re-analysis of the deposited data

How the results depend on the processing

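The main counts were 2 carriers higher, 1 lower, and 0 and 1 genes of the other lists higher and lower. Median-ratio factors and a filter of 1 CPM in 3 libraries changed none of the 4, nor did total counts. DESeq2 gave 4, 2, 8 and 4, no filter 2 lower carriers and 2 and 4 list genes, and a threshold of 0.1 3, 2, 6 and 4; over all genes these settings called 1634, 852 and 1528, against 437 in the main test. With limma-voom or no robust step 0 list genes were lower. The length correction gave 1 higher carrier and 0 lower list genes, and the GC correction 1 higher and 2 lower carriers and 1 and 0 list genes. Leaving out each library gave 0 to 2 carriers higher, 0 to 2 lower, and 0 to 8 and 0 to 2 list genes; all 3 carrier calls were lost when any of DHT replicates 1 and 3 and control replicates 2 and 3 was left out, where the fits called 19, 0, 7 and 89 of all genes. Without DHT replicate 2 Slc25a27 was called as well, among 1224 genes.

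No pairing of libraries by replicate number was visible: same-numbered libraries deviated together with correlations of 0.084, -0.163 and 0.053. Pairs with unlike numbers had -0.154 to 0.14. Deviations from the mean of only 3 libraries cannot settle whether the samples were paired. With the replicate block 0 carriers were higher, 0 lower, and 0 list genes were lower, among 85 calls over all genes.

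Some carriers that were not called changed sign in log2 fold change. With total counts Slc25a38, Slc25a4 and Slc25a3 had -0.0325, -0.0322 and -0.0771. The length correction gave Slc25a12 0.0203, Slc25a15 0.000252 and Slc25a4 -0.0106. With each library left out, Slc25a1 ranged from -1.69 to 0.118, Slc25a25 from -0.0664 to 1.09, Slc25a14 from -0.122 to 0.316, Slc25a38 from -0.00146 to 0.195, Slc25a15 from -0.253 to 0.0901 and Slc25a17 from -0.202 to 0.0835. The causes were not tested. Of the values of the 30 carriers run under alternatives, 442 kept their direction and their side of the threshold, 18 lost a call, 6 gained one and 13 changed sign. Few counts limit Slc25a1, Slc25a11, Slc25a24, Slc25a33, Slc25a43, Slc25a47 and Slc25a53, whose SE was 0.35 to 0.77 log2.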
